A study of Gallus gallus with 9 samples.

Results

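In 165 genes of the chick thymus, the lowest LPS library had a higher value than any library of the CON and GEN groups. They are 1.54% of the 10730 genes to which the rule was applied, out of 25016 in the table. The opposite order, with every LPS library below all CON and GEN libraries, was met by 150 of the 10730. The rule took genes with an Ensembl identifier, a length of at least 100 bases and at least 1 FPKM in at least 3 of 9 libraries. FPKM is the number of sequenced fragments scaled to gene length and library size. Genes of the mitochondrial genome, of chromosomes 16, Z and W, and of the small chromosomes 25 to 28 and 30 to 33 were left out. The genes were chosen by their FPKM in these same 9 libraries, on the order itself, so differences of LPS from CON and from GEN are given below as descriptions with no test. The rule set no order between GEN and CON, and that contrast was tested. It is not free of the rule, which needs all 6 of these libraries to lie below LPS.

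The birds were ROSS 308 broiler chicks aged 21 days, with 3 thymus libraries per group. CON chicks were fed the basic diet. LPS chicks were treated with lipopolysaccharide, and GEN chicks with lipopolysaccharide and genistein together. No dose, route, timing, sex or pooling is stated in the labels, and libraries carry only a replicate number. It is not known whether each is a separate bird, and the spread behind each p-value could be technical. The table gives identifiers without gene names, and a RefSeq gene table of the GRCg7b assembly paired 0 of them with a symbol. Identifiers and positions stand in place of names, the positions in GRCg6a, which the submitters' processing notes give. For the same reason no thymic marker gene could be checked, and no function can be given for any of the 165.

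The thymus is the organ in which T cells mature, within a meshwork of epithelial cells, macrophages and dendritic cells. Lipopolysaccharide, a component of the outer membrane of Gram-negative bacteria, is sensed by a Toll-like receptor on innate immune cells, and this starts the transcription of inflammatory genes. Genistein is a soy isoflavone that binds oestrogen receptors and inhibits tyrosine kinases. In whole tissue, more transcript per cell and more cells of one type cannot be told apart.

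One control library stood apart. CON 3 correlated with the other libraries across genes at 0.877 to 0.888 on the log2(FPKM + 1) scale, while pairs among the other 8 gave 0.957 to 0.984. Its mitochondrial share of fragments was 3.94%, and in the other libraries 1.43% to 1.93%. The total by which its fragments were scaled was 0.767 times their sum, against 1.01 to 1.09 times in the others. Values below are given with and without CON 3 where they rest on it. Libraries held 19618047 to 25863282 gene fragments.

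For most of the 165 genes the gap was narrow. The ratio of the lowest LPS value to the highest of the 6 other values had a median of 1.04, with quartiles of 1.02 and 1.102 and a highest value of 2.68. It was at least 1.1 in 43 genes, at least 1.2 in 11, at least 1.5 in 4 and at least 2 in 2. Some of these genes reached 1 FPKM in no CON or GEN library, as given below. The 2 libraries on either side of the gap were also set against counting error, taken as the square root of the fragments in each. The gap was under 1 counting SD in 110 genes, between 1 and 2 in 36, and over 2 in 19. These 19 lay on 12 chromosomes, and CON 3 was the lowest of the 9 libraries in 13 of them. It was so in 72.1% of the 165 and in 38.5% of eligible genes, shares that are not free of the rule, which CON 3 enters. Counting error leaves out the spread between birds.

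**Figure D1:**
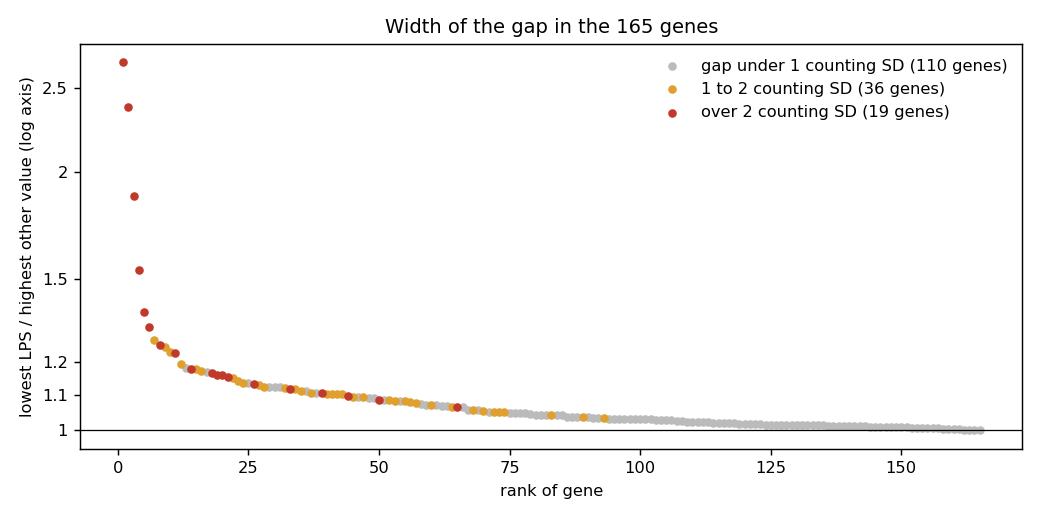
Ratio of the lowest LPS value to the highest CON or GEN value (vertical, log axis) for the 165 genes ranked by it (horizontal), coloured by the size of the gap in counting SDs. After the first 4 genes, all at 1.5 or more, the ratio declines to just above 1, and 110 genes have a gap under 1 counting SD.

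At the edge of the rule the order was decided by very small differences, 0.00104 to 0.018 counting SD in the 3 genes just inside. ENSGALG00000002836, on chromosome 21 (3745002 to 3826918), was just inside, with 6.037 FPKM in LPS 2 against 6.037 in CON 2, a ratio of 1.00007. ENSGALG00000002651 on chromosome 11 (1776442 to 1780422) had 15.14 FPKM in LPS 2 against 15.13 in GEN 3. ENSGALG00000050893 on chromosome 2 (42632317 to 42640047) had 5.178 FPKM in LPS 3 against 5.174 in GEN 3. Of the genes just outside, ENSGALG00000023510 on chromosome 15 had 74.31 FPKM in LPS 3 against 74.35 in CON 3. ENSGALG00000011489 on chromosome 3 had 3.797 FPKM in LPS 2 against 3.801 in GEN 1. ENSGALG00000004763 on chromosome 19 had 56.98 FPKM in LPS 2 against 57.08 in CON 1. The genes on both sides of this edge thus differ by less than 1% in the 2 libraries that decide.

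The widest gap belonged to ENSGALG00000054358 on the minus strand of chromosome 6 (15547565 to 15650289), a gene model of 2127 exonic bases. Its 3 LPS libraries measured 1.95, 2.64 and 3.36 FPKM (111, 133 and 181 fragments). The CON libraries measured 0.671, 0.326 and 0.0599 FPKM, and the GEN libraries 0.198, 0.728 and 0.526. The LPS mean of 2.65 ± 0.706 FPKM (SD, n = 3) was 7.54 times that of CON and 5.48 times that of GEN, and 5.33 times that of CON without CON 3. No CON or GEN library reached 1 FPKM, so this gene passed the filter on low values only through LPS. The same holds for 8 of the 165 genes, whose LPS means were 1.04 to 2.65 FPKM.

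ENSGALG00000047285 on the plus strand of chromosome 3 (107443030 to 107444685; 565 exonic bases) followed. It measured 8.08, 5.68 and 3.43 FPKM in LPS, from 122, 76 and 49 fragments. In GEN it measured 0.331, 0.0831 and 0.424 FPKM, from 4, 1 and 6 fragments. In CON it measured 0.789, 1.44 and 0.113 FPKM, from 10, 20 and 1 fragments. The LPS mean was 20.5 times the GEN mean and 7.33 times the CON mean, or 5.14 times without CON 3. GEN lay at 0.279 ± 0.176 FPKM and CON at 0.781 ± 0.664 (SD, n = 3).

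This gene lies wholly within the span of a second member of the 165, ENSGALG00000022815 on the minus strand (107430692 to 107459717; 578 exonic bases). That gene measured 24.9, 5.11 and 3.76 FPKM in LPS, 2.47, 3.45 and 0.110 in CON, and 0.728, 0.731 and 1.45 in GEN. LPS 1 was far above LPS 2 and LPS 3 in its LPS mean of 11.2 ± 11.8 FPKM, and the gap between LPS 3 and CON 2 was 0.438 counting SD. The span of ENSGALG00000022815 overlaps 4 models on the other strand and 1 on its own. Only spans were compared, not exons, and no strand setting is given in the sources used here. It is therefore not known whether the 2 models share fragments, and their values may not be separate.

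ENSGALG00000019553 on the minus strand of chromosome 2 (67656284 to 67662678; 2120 exonic bases) had the gap largest in counting SDs, at 5.82. It measured 4.57, 8.65 and 10.3 FPKM in LPS, 0.526, 1.81 and 0.271 in CON, and 1.52, 2.44 and 0.998 in GEN. The LPS mean was 9.05 times the CON mean, 6.73 times without CON 3, and 4.75 times the GEN mean. ENSGALG00000032028 on the minus strand of chromosome 1 (173838414 to 173854684; 2876 exonic bases) was lower in level. It measured 2.13, 1.48 and 1.43 FPKM in LPS, 0.542, 0.538 and 0.931 in CON, and 0.634, 0.637 and 0.361 in GEN. No CON or GEN library reached 1 FPKM, so this gene also passed the filter only through LPS. In this gene CON 3 was the highest of the 6 other libraries, and the ratio of LPS to CON grew from 2.51 to 3.11 without it.

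In the next genes the groups were closer. ENSGALG00000002728 on chromosome 18 (4866126 to 4876014) measured 1.42, 1.57 and 1.36 FPKM in LPS, 0.625, 0.993 and 0.466 in CON, and 0.584, 0.787 and 0.852 in GEN, and no library outside LPS reached 1 FPKM. ENSGALG00000026264 on chromosome 2 (148652448 to 148654580) is a model without introns. It measured 11.9, 12.8 and 13.3 FPKM in LPS, 7.40, 7.94 and 5.35 in CON, and 9.05, 7.33 and 7.30 in GEN. Its LPS libraries were close to each other, and the gap of 4.52 counting SD rested on 646 to 717 fragments per LPS library. ENSGALG00000008514 on chromosome 5 (24634300 to 24643252) measured 13.2, 13.8 and 11.7 FPKM in LPS, 8.66, 9.08 and 1.34 in CON, and 9.28, 6.92 and 6.04 in GEN. Its CON 3 value lay far below CON 1 and CON 2, and the ratio of LPS to CON dropped from 2.02 to 1.45 without it.

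**Figure D2:**
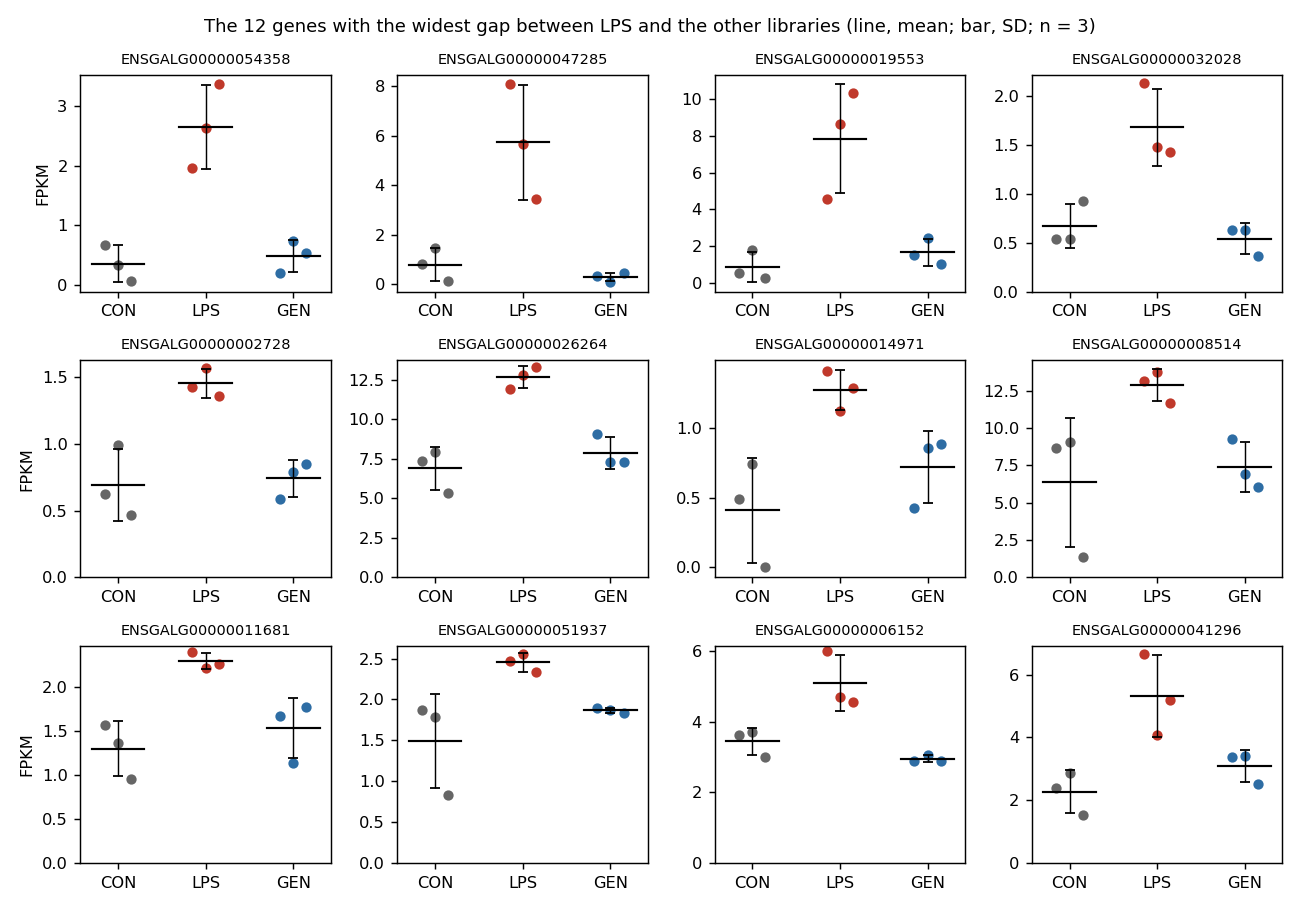
FPKM (vertical) of the 12 genes with the widest gap in each of 3 CON, 3 LPS and 3 GEN libraries (points), with the group mean (line) and SD (bar). All LPS points lie above all others because the rule chose them so; CON 3, the rightmost CON point, is the lowest of the 9 libraries in 9 of the 12 genes.

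The other 5 of the 12 genes lay under 6 FPKM in LPS on average. ENSGALG00000041296 on chromosome 3 (106816449 to 106818809) measured 6.66, 4.06 and 5.20 FPKM in LPS, 2.40, 2.87 and 1.52 in CON, and 3.38, 3.40 and 2.4999 in GEN. ENSGALG00000006152 on chromosome 20 (9786517 to 9794241) measured 5.99, 4.70 and 4.54 FPKM in LPS, 3.63, 3.70 and 2.99 in CON, and 2.89, 3.07 and 2.89 in GEN. The remaining genes, ENSGALG00000014971 on chromosome 4, ENSGALG00000011681 on chromosome 5 and ENSGALG00000051937 on chromosome 2, had LPS means of 1.28, 2.30 and 2.46 FPKM and gaps of 1.048, 1.44 and 1.41 counting SD. Of the 12 genes, 8 had a gap over 2 counting SD. In ENSGALG00000014971, CON 3 held 0 fragments, and the ratio of LPS to CON was 3.10 with it and 2.06 without it. Its highest value outside LPS was 0.885 FPKM, in GEN 3, so it passed the filter only through LPS.

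The 6 most abundant of the 165 genes had LPS to CON ratios of 1.08 to 1.55 and LPS to GEN ratios of 1.047 to 1.601. ENSGALG00000041346 on chromosome 6 (19850341 to 19864037) measured 109, 131 and 113 FPKM in LPS, 82.6, 65.8 and 84.8 in CON, and 100.2, 68.6 and 51.9 in GEN. The LPS mean was 1.515 times that of CON and 1.601 times that of GEN, and the lowest LPS library was 1.09 times GEN 1, a gap of 4.05 counting SD. ENSGALG00000011715 on chromosome 5 (53057972 to 53060373) measured 83.4, 94.4 and 99.4 FPKM in LPS, 69.4, 64.0 and 51.3 in CON, and 80.8, 74.3 and 74.1 in GEN. Its 3 groups did not overlap, in the order CON, GEN, LPS, in which the rule fixed the place of LPS. The lowest LPS library was 1.03 times GEN 1, a gap of 1.53 counting SD. GEN lay wholly above CON in 8.83% of all genes tested. For this gene GEN vs CON had a limma adjusted p of 0.452. In ENSGALG00000043006 on chromosome 2 and ENSGALG00000015821 on chromosome 1, the LPS means of 68.2 and 66.7 FPKM were 1.08 and 1.13 times those of CON, with gaps of 0.251 and 0.110 counting SD.

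In both remaining abundant genes CON 3 was far below CON 1 and CON 2. ENSGALG00000039869 on chromosome 4 (35039467 to 35039990) measured 67.6, 56.4 and 20.5 FPKM in CON, against 70.8, 82.7 and 70.4 in LPS. ENSGALG00000052014, on an unplaced scaffold, measured 61.0, 65.6 and 8.77 FPKM in CON, against 72.6, 67.3 and 65.9 in LPS. Their ratios of LPS to CON, 1.55 and 1.52, were 1.204 and 1.08 without CON 3. The first overlaps gene models on both strands, so its fragments may not be its own.

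Over all 165 genes the ratio of the LPS to the CON mean had a median of 1.489 (quartiles 1.31 and 1.72), and that of LPS to GEN a median of 1.31 (quartiles 1.21 and 1.47). Without CON 3 the first was 1.25 (quartiles 1.16 and 1.45). Over all 10730 eligible genes these medians were 1.00, 1.01 and 0.994. Of the 165, 80 had an LPS to CON ratio of at least 1.5, and 39 without CON 3. An LPS to GEN ratio of at least 1.5 was seen in 36, and both ratios reached it in 29, or in 24 without CON 3. The rule fixed the direction of all these ratios, and the LPS libraries are shared by both.

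**Figure D3:**
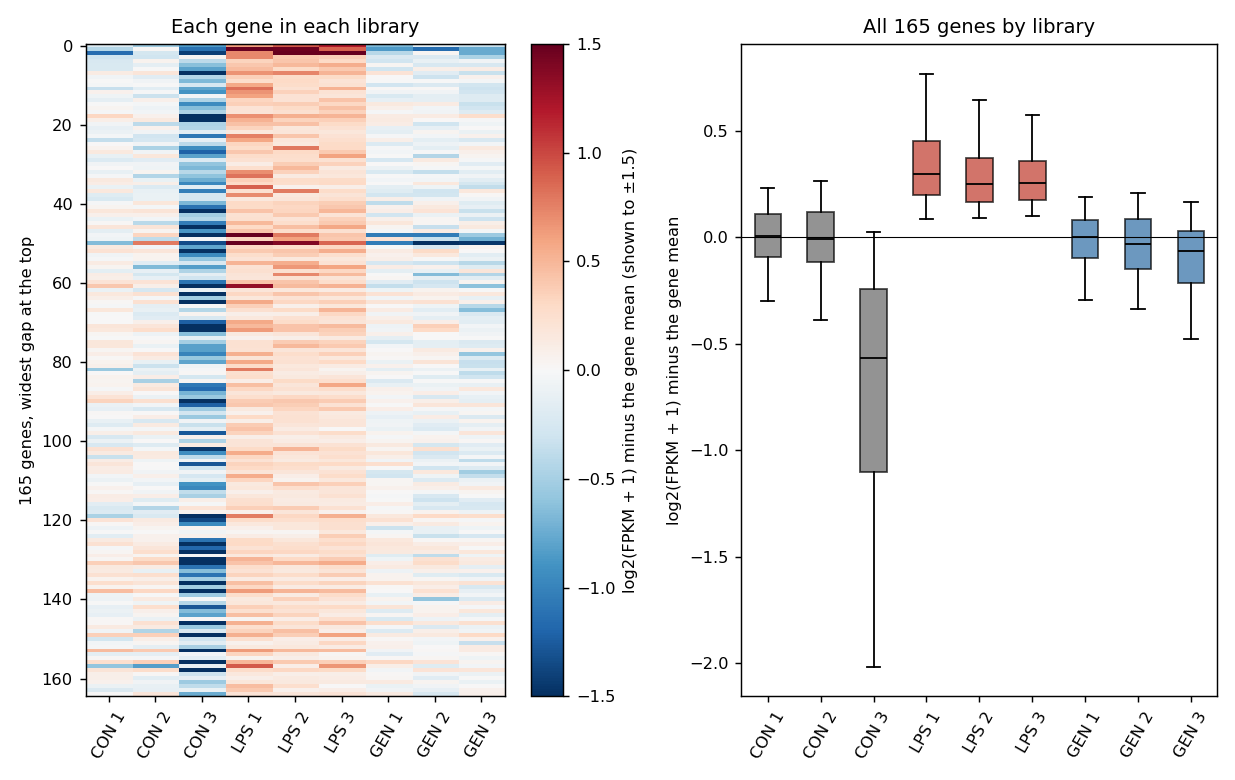
Left, each of the 165 genes (rows, widest gap at the top) in the 9 libraries, as log2(FPKM + 1) minus the gene's mean over libraries. Right, the same values by library (box, quartiles; line, median; whiskers, 5th to 95th percentile): the medians are 0.30, 0.25 and 0.26 in LPS, between -0.07 and 0.01 in CON 1, CON 2 and the GEN libraries, and -0.57 in CON 3.

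Low-level genes were more frequent among the 165 than among eligible genes. The median of the mean over 9 libraries was 6.07 FPKM, against 11.5 FPKM for eligible genes. Of eligible genes with a mean under 2 FPKM, 2.61% met the rule (37 genes), of those with 2 to 10 FPKM 1.93% (67), of those with 10 to 50 FPKM 1.15% (52) and of those with 50 FPKM or more 0.687% (9). The median ratio of LPS to GEN was 1.43, 1.32, 1.25 and 1.21 in these 4 classes. The size of these ratios is not free of the rule, and the cause of their order was not tested. The lowest class holds all 8 genes that passed the filter only through LPS, and an eligible gene of that kind meets the rule by construction. Without them 2.06% of that class did, 29 genes, with a median ratio of 1.35, and the other classes stayed as they were. In 116 of the 165 genes all 9 libraries reached 1 FPKM, 70.3%, against 84.3% of eligible genes. The lowest LPS library of each gene held 13 to 5563 fragments, with a median of 445.

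CON 3 lay at the bottom of most of the 165 genes. It was the lowest of the 6 CON and GEN libraries in 119 of them, 72.1%, and in 40.7% of eligible genes. It was the highest of the 6 in 7 of them, 4.24%, and in 35.7% of eligible genes. Of the 4372 eligible genes with CON 3 lowest, 2.72% met the rule. Of the 6358 others 0.723% did, and of the 3826 with CON 3 highest 0.183%. CON 3 enters the rule, which needs it to lie below every LPS library. The shares given here are therefore not free of the rule, and their cause was not tested. In 40 of the 165 genes, 24.2%, CON 3 was under 0.25 of the mean of CON 1 and CON 2, against 9.80% of eligible genes. The mirror set of 150 genes, with every LPS library below all others, had CON 3 as the highest of 9 libraries in 102, 68.0%. That order uses CON 3 too. Without CON 3, 257 of 10658 genes, 2.41%, had every LPS library above the other 5. Leaving out a CON or GEN library can only add genes to the set, and in 73 of the 92 added here CON 3 was the highest of all 9.

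**Figure D4:**
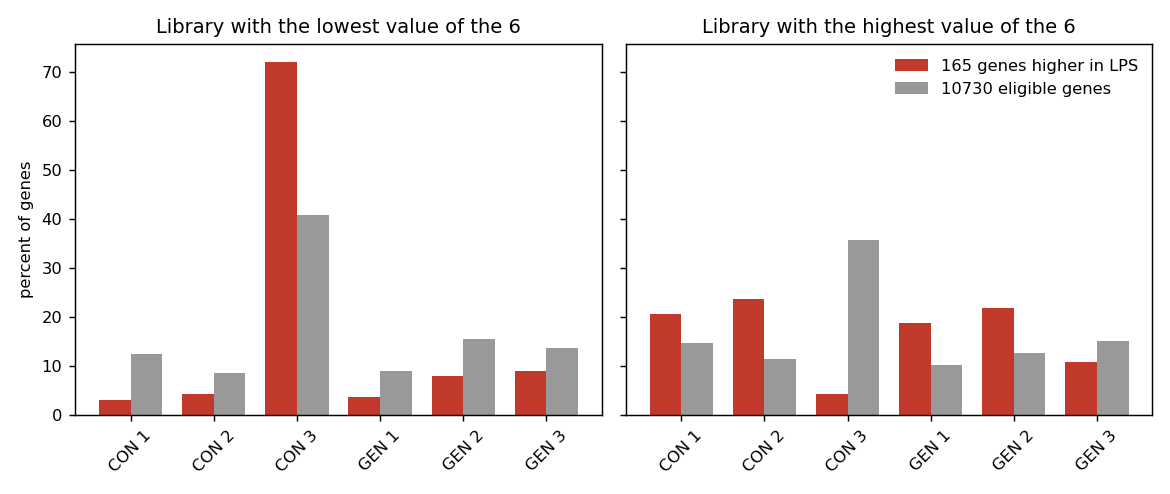
Percent of genes (vertical) in which each of the 6 CON and GEN libraries (horizontal) holds the lowest (left) or the highest (right) value of the 6, for the 165 genes and for all 10730 eligible genes. CON 3 is lowest in 72.1% of the 165 genes and 40.7% of eligible genes, and highest in 4.24% and 35.7%. The rule needs CON 3 below every LPS library, so these shares are not free of it.

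Each library also decided how many genes met the rule. Without CON 1, 142 further genes met it, without CON 2 83, without GEN 1 71, without GEN 2 48 and without GEN 3 36. Leaving out an LPS library added 158 genes for LPS 1, 219 for LPS 2 and 135 for LPS 3. In each of these last 3 cases 157 of the 165 genes still met the rule, since 8 genes no longer reached 1 FPKM in 3 libraries. LPS 1 was the highest LPS library in 85 of the 165 genes, 51.5%, against 37.3% of eligible genes. One LPS library was at least 1.5 times both others in 8 of the 165 genes, 4.85%, against 9.17% of eligible genes.

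GEN against CON, lipopolysaccharide with genistein against the basic diet, was the contrast in which the rule sets no order. A limma fit over 13506 genes called 0 of the 165 genes at an adjusted p under 0.05, as it called 0% of all genes tested. At an unadjusted p under 0.05, 1 of the 165 (0.606%) was higher in GEN, against 4.68% of all genes, and 0 were lower, against 6.12%. With limma-voom on fragments the call count was also 0. There 5 were higher at an unadjusted p under 0.05, 3.03% against 8.47% of all genes in that fit. With library quality weights, limma called 54 of all genes, 0.4%, and 0 of the 165. The shares of the 165 set against all genes are not free of the rule, which needs every CON and GEN library below LPS. Their cause was not tested. The median half-width of the 95% interval was 0.47 on the log2 scale, and 0.33 without CON 3. Differences within this half-width could not be seen for a single gene. The lowest limma adjusted p of any of the 165 was 0.452.

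The lowest unadjusted p belonged to ENSGALG00000028304 on chromosome 2 (19542337 to 19568271). It measured 2.89, 3.27 and 3.18 FPKM in GEN, 1.497, 1.98 and 0.117 in CON, and 4.93, 3.33 and 4.04 in LPS. GEN lay above CON in every library, and below LPS as the rule requires. Its log2 fold change of GEN over CON was 1.02 (SE 0.34; limma adjusted p 0.452), and 0.59 (SE 0.17; limma adjusted p 0.242) without CON 3. Over 20 settings its limma adjusted p ranged from 0.088 to 0.699, and the unadjusted p from 0.0023 to 0.0414.

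The direction of GEN against CON in the 165 genes depended on CON 3. With all 9 libraries the median log2 fold change was 0.15, against 0.01 over all genes tested, and 129 of 165 genes were above 0 (78.2%, against 50.8%). Without the 8 genes that passed the filter only through LPS, 122 of 157 were above 0 (77.7%, against 50.8%). These comparisons with all genes are not free of the rule, which CON 3 enters. CON 3 over the mean of CON 1 and CON 2 had a median of 0.576 in the 165 and 0.955 in eligible genes. Without CON 3 the median was -0.04, against -0.02 over all genes tested. Then 62 of the 165 genes were above 0, a smaller share than the 46.9% of all genes. At an unadjusted limma p under 0.05, 2 were then higher, 1.21% against 6.6% of 13391 genes. By the same limit 10 were lower, 6.06% against 9.44%, and 0 passed the adjusted test. GEN and CON did not overlap in 9 genes with GEN higher, 5.45%, against 8.83% of all genes. They did not overlap in 2 genes with GEN lower, 1.21%, against 12.3%. These 2, chosen for mention after their values were seen, were ENSGALG00000005626 on chromosome 15 and ENSGALG00000041298 on chromosome 14. The first measured 16.7 ± 0.708 FPKM in CON and 13.96 ± 1.63 in GEN, the second 9.40 ± 1.42 and 7.85 ± 0.492. Without CON 3 the counts were 14 with GEN higher, 8.48% against 15.6%, and 27 with GEN lower, 16.4% against 20.5%. The comparisons without CON 3 are not free of the rule either. It chose the 165 genes with CON 3 included, and every other CON and GEN library enters it too.

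**Figure D5:**
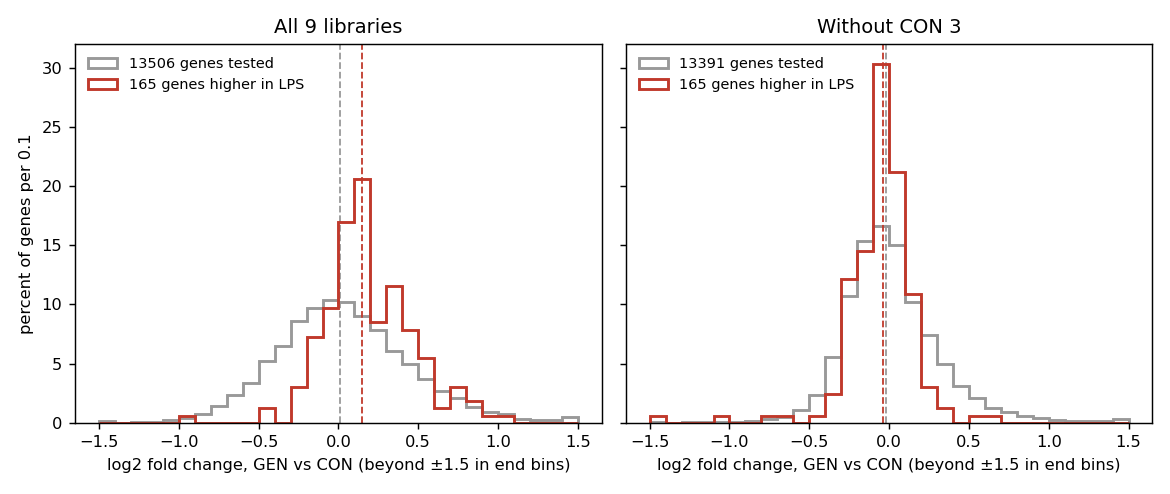
Distribution of the log2 fold change of GEN over CON (horizontal, bins of 0.1) as percent of genes (vertical) for the 165 genes and for all genes tested, with medians as dashed lines. With all 9 libraries (left) the median of the 165 genes is 0.15 and without CON 3 (right) it is -0.04.

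The 165 genes were spread over 23 numbered chromosomes, with 2 genes on unplaced scaffolds. On the 21 chromosomes with at least 200 eligible genes the share meeting the rule was between 0.427% (chromosome 23, 1 of 234) and 3.21% (chromosome 21, 7 of 218). Among smaller ones, chromosome 24 had 6 of 139, 4.32%, and chromosome 22 had 3 of 154, 1.95%. Chromosomes 1 and 3 held 21 each, of 1626 and 941 eligible genes. Both strands were used alike, with 81 genes on the plus strand. The median exonic length was 2416 bases, against 2338 in eligible genes.

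The 165 genes spanned more of the genome, with a median from start to end of 18586 bases against 13282. Spans were also split by the place of CON 3, a split that is not free of the rule, and no cause was tested. Among genes with CON 3 lowest of the 6, the median span was 22128 bases in the 119 genes meeting the rule and 22164.5 bases in all 4372. Among the rest it was 10762 bases in 46 genes and 9112 bases in 6358. Models without introns made up 7 of the 165, 4.24%, against 3.37% of eligible genes. A gene model on the other strand overlapped 29 of them, 17.6%, against 17.4%, and one on the same strand 15, 9.09%, against 11.6%. For these genes fragments of the 2 models may not be separate.

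Of the 165, 12 genes formed 6 pairs that are adjacent among eligible genes, and no run was longer than 2. Besides the overlapping pair on chromosome 3, the closest pair lay on chromosome 20, where ENSGALG00000036219 ends 3196 bases before ENSGALG00000006152 on the same strand. The first measured 2.28, 2.09 and 2.17 FPKM in LPS against 2.02 in CON 2, a gap of 0.244 counting SD. On chromosome 6, ENSGALG00000038722 and ENSGALG00000005422 lie 3833 bases apart on the plus strand. The first measured 4.44, 3.43 and 3.20 FPKM in LPS and up to 3.04 elsewhere, the second 13.9, 11.3 and 12.2 FPKM in LPS and up to 10.7 elsewhere. The other pairs were ENSGALG00000015821 with ENSGALG00000015828 on chromosome 1, ENSGALG00000007174 with ENSGALG00000053788 on chromosome 17, and ENSGALG00000006567 with ENSGALG00000006598 on chromosome 24. In ENSGALG00000015828, CON 3 measured 0.575 FPKM against 13.1 and 13.2 in CON 1 and CON 2, and in ENSGALG00000006567 1.63 against 21.9 and 22.7.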

How the data were processed

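The deposited table holds FPKM per gene and library, with position and length, which the file headers name. The submitters' processing notes list CASAVA 1.8, featureCounts 1.5.0-p3 and GRCg6a. The aligner, annotation release and strand setting were not given in the sources used here. Multiplied by gene length, each library's values came out as whole fragment numbers after division by a common step (100% within 0.01). Intervals of counting error cover counting only.

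The rule was applied to FPKM as deposited. GEN vs CON was tested with limma 3.58.1 (R 4.3.3; trended prior, two-sided, Benjamini-Hochberg) on log2(FPKM + 1), a scale that understates changes of low genes, for the 13506 genes that reached 1 FPKM in 3 or more libraries, in one fit of 9 libraries. The fit was tested on simulated data with the same spread for all genes and no outlying library. That test does not tell what the fit could find in these libraries. Figures used Python 3.11.15 and matplotlib 3.10.9. The marker and pathway lists could not be used without gene names.

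The genes and the lists were chosen with earlier results of these data known. Genes named are the 12 with the widest gap (lowest LPS at least 1 FPKM), the 6 most abundant, those with an unadjusted p under 0.05 in GEN vs CON (at most 6), 3 on each side of the rule's edge, and adjacent pairs. The alternatives tried were scaling, pseudocount, filters, prior, samples fitted, replicate block, voom, library weights and leaving out each library; 0 columns belonged to other series. No 2 libraries held identical values, and libraries of one group differed by more than sampling noise (chi-square per degree of freedom 14.9 to 280.5).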

Additional observations from a re-analysis of the deposited data

How the results depend on the processing

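The number of genes meeting the rule, 165, was 248 with libraries scaled by the sum of their fragments (142 of the 165 among them), 134 with quantile normalization (108 of the 165), 221 with no filter and 4 when the lowest LPS value had to be 1.5 times the highest other. Leaving out 1 library gave 201 to 376. With the limit of 0.05 on the adjusted p, none of the 165 differed between GEN and CON in any of 20 settings. The looser limit of 0.1 was applied to the main fit only, and there it also called 0 of them. Over the 20 settings the lowest limma adjusted p of any of them ranged from 0.088 to 0.699. The 0.088 came with library quality weights and lies under the looser limit. Between 147 and 165 of them were tested in each setting. Of all genes, 54 were called at the limit of 0.05 with library quality weights. Pseudocount 0.1, no filter and leaving out LPS 3 called 1 each, and the other fits called 0. At an unadjusted p under 0.05 the 1 gene higher in GEN became 5 with fragment-sum scaling and with voom (3.03%, against 8.48% and 8.47% of all genes). It became 3 with the replicate block (1.82%, against 4.74%). It became 2 (1.21%) with quantile normalization (4.18% of all genes), without the trend (4.88%), with no filter (4.66%) and with library quality weights (10.2%). The 0 genes lower in GEN became 2 with quantile normalization (1.21%, against 5.92% of all genes) and 7 with quality weights (4.24%, against 12.4%). Leaving out 1 library gave 1 to 8 higher and 0 to 10 lower. The 8 came without CON 1 (4.85%, against 6.17% of all genes) and the 10 without CON 3 (6.06%, against 9.44%). The median log2 fold change of GEN over CON, 0.15, was 0.41 with voom, where the median of all genes was 0.22, and 0.29 with fragment-sum scaling, where that median was 0.18. It was 0.02 with quantile normalization, -0.04 with quality weights and -0.04 to 0.26 when 1 library was left out, the lowest without CON 3. GEN and CON did not overlap in 11 of the 165 genes (6.67%, against 21.1% of all genes), in 27 with fragment-sum scaling (16.4%, against 21.5%), in 17 with quantile normalization (10.3%, against 19.1%) and in 11 to 41 when 1 library was left out (the highest 24.8%, against 36.1%). The shares of the 165 set here against those of all genes are not free of the rule, and their causes were not tested. The replicate block called 0 genes. Same-number libraries' deviations correlated at -0.1 to 0.34, over 0.1 in 4 of 9 pairs. Libraries of unlike number were not compared, so these values do not decide whether the numbers mark pairs. The numbers were not taken as pairs because the labels do not say what they mark. Ratios of means of the 12 widest-gap and 6 most abundant genes changed direction in 0 of 252 cases. The rule fixes that direction in FPKM as deposited. In 28 of the 252 cases the log2 ratio moved by at least the SD within the groups compared. That SD was taken on log2(FPKM + 1) and the ratio on FPKM, so their scales differ, most so for low genes. This check was chosen after the data were seen, like the counts without the 8 genes that passed the filter only through LPS.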

Other observations

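The order of the rule was also met by 26 genes that its other conditions leave out, though they pass its filter on FPKM. Of these, 19 lay on an excluded chromosome, 6 had no Ensembl identifier and 1 was shorter than 100 bases. The 3 with a gap ratio of at least 1.5 were chosen for mention after their values were seen. A gene without an Ensembl identifier on chromosome 20 (5170329 to 5171174) measured 56.3, 38.8 and 44.4 FPKM in LPS, 5.26, 15.05 and 3.88 in CON, and 9.17, 6.35 and 9.81 in GEN. ENSGALG00000024272 on chromosome 25 (3296971 to 3298411) measured 50.7, 36.6 and 44.6 FPKM in LPS, 13.1, 19.9 and 5.13 in CON, and 6.81, 15.2 and 18.3 in GEN. ENSGALG00000050637 on chromosome 32 (463888 to 464961) measured 3.41, 2.36 and 2.14 FPKM in LPS and at most 1.13 in any other library.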
